A study of Mus musculus with 12 samples.

Results

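The genes described here are the enzymes and the carrier that remove ammonia in the liver, in mouse liver cells sorted along the conversion of hepatocytes to biliary cells. Those described are Cps1, Otc, Ass1, Asl, Nags, Slc25a15, Gls2, Glul and Oat. The members were chosen by gene symbol, and all 10 were found among the 53599 genes of the count table. All 10 were also among the 16210 genes that passed the filter on low counts. Labels give every mouse the genotype WT. The reporter allele, age, sex and any pooling of animals are not given in the sources used here. Each mouse received AAV8-TBG-Cre, a virus in which a hepatocyte promoter drives Cre, so that EGFP marks hepatocytes and cells derived from them. A diet with 0.1% DDC (3,5-diethoxycarbonyl-1,4-dihydrocollidine, which injures bile ducts) began 1 week later and lasted 8 weeks. All 4 groups share this treatment, so no group is uninjured. The early group is EGFP+ Cd24- Epcam-, the intermediate group EGFP+ Cd24+ Epcam-, the full group EGFP+ Cd24+ Epcam+, and the resident biliary epithelial cells (BEC) are EGFP- Epcam+. Each group has 3 libraries of bulk RNA.

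The urea cycle turns ammonia into urea, mainly in periportal hepatocytes, which lie where blood enters the lobule. Cps1 and Otc work in the mitochondrion, and Ass1 and Asl in the cytosol. Pericentral hepatocytes, near the outgoing vein, take up the ammonia that escapes by making glutamine with Glul. Gls2, the liver-type glutaminase, releases ammonia from glutamine on the periportal side, and Oat, which converts ornithine to glutamate, is known as a pericentral gene. Biliary cells are not known as a site of urea synthesis.

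Promoter sequences were available for some members and are given as a description. A link between these sequences and the transcript that remained was not tested. The RefSeq table (build GRCm38.p6) held windows of 300 bases, from 250 before to 50 after the annotated start, for 6 of the 10 members: Otc, Ass1, Nags, Slc25a15, Glul and Oat. Windows for Cps1, Asl and Gls2 were not used here. Of these 6, Otc had the lowest percentage of its early level left in full and in BEC, and Oat and Glul the highest. In intermediate this order did not hold: Ass1 (9.08%) was below Otc (10.8%), and Oat (13.8%) below Nags (36.9%) and Slc25a15 (25.4%). The windows of Otc, Oat and Glul are printed 5′ to 3′ on the gene's strand, with CCAAT and GGGCGG on either strand in capitals.
Otc, chrX:10252055-10252354 (+): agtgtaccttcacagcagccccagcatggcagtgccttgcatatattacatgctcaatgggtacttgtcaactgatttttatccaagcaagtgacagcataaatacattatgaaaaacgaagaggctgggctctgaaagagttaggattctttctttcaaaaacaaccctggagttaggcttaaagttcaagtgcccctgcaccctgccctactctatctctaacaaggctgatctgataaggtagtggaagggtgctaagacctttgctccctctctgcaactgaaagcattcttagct
Oat, chr7:132576349-132576648 (-): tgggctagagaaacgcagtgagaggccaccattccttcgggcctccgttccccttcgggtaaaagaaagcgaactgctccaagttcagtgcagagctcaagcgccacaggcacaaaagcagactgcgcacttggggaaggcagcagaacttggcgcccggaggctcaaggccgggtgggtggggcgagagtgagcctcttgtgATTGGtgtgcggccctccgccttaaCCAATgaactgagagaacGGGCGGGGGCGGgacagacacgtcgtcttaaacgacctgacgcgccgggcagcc
Glul, chr1:153899679-153899978 (+): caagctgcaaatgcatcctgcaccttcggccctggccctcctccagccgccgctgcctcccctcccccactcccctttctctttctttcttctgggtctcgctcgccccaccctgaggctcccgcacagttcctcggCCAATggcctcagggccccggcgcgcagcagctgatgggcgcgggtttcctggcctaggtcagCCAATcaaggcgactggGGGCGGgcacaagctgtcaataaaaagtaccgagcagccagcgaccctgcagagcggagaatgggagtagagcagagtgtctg
The Glul window held 2 matches to CCAAT and 1 to GGGCGG, and the Oat window held 2 of each. The Otc window held neither. CCAAT was also absent from the windows of Ass1, Nags and Slc25a15. GC content was 44.3% for Otc, 64.3% for Glul and 61.7% for Oat, with a median of 52.7% over all 32851 windows. Ass1, at 1.24% of early in full against 1.17% for Otc, had 74.0%, and Nags had 57.7%. CCAAT was found in 37.4% of all windows and GGGCGG in 35.7%. GGGCGG was also found in the windows of Ass1, Nags and Slc25a15, which fell at both of the steps marked by Cd24 and Epcam. TATAAA (13.6% of all windows), TTGCNNAA (10.8%) and CAAAGTCCA (0.475%) were in none of the members' windows, and CTTTGAT (3.73%) was in that of Nags alone. Both strands were searched, the motifs were chosen with the levels known, and CAAAGTCCA and CTTTGAT can overlap by a few letters. A match is a run of letters and not a measured site.

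Library totals ran from 15112893 to 19731887 counts. Levels are given as CPM, the usual read count per library size, after scaling by TMM factors, which ran from 0.652 to 0.672 in early and from 1.03 to 1.22 elsewhere, so that a level depends on this scaling. The hepatocyte list (Alb, Ttr and 8 others) summed to between 110257 and 113591 CPM in early and 2148 to 2754 in BEC. In early, 4 of 10 biliary markers (among them Krt19, Cftr and Muc1) were at or under 3 counts in every library, and in BEC none were. Mitochondrial transcripts held 7.63% ± 3.31 of the counts in early (SD, n = 3), with 11.4% in early replicate 2, and 2.33% ± 0.141 in full. Macrophage markers summed to 25.9 to 29.0 CPM in early and 133 to 163 in BEC, of which Csf1r held 127 ± 6.69 (SD, n = 3), while Adgre1 was at 0.522. Macrophage Cd68 was at 14.0 CPM in early, 2.74 in intermediate, 1.62 in full and 3.46 in BEC. Of 10 stellate cell and fibroblast markers, 8 were lower and 1 higher in full than in early, the last being Rgs5 (41.0 CPM in early and 3185 in full). Endothelial markers summed to 45.3 to 55.4 CPM in early and 13.1 to 14.4 in full, with 4 of 9 tested lower and 0 higher. Over all genes tested, 32.1% were lower and 39.1% higher in full than in early. Neutrophil and lymphocyte lists summed to at most 1.13 CPM in each library. The part of other cell types in the results below was not tested.

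Across the groups the members described fell into 3 kinds of pattern, a grouping made after the values were seen. Cps1, Otc, Ass1 and Gls2 fell at both steps until between 1.17% and 2.23% of the early level was left in full, with 1.03% to 1.38% in BEC. Asl, Nags and Slc25a15 also fell at both steps but kept 10.3% to 12.4% in full and 5.46% to 7.83% in BEC. Oat fell to 13.8% in intermediate and stood at 27.7% in BEC, and Glul was at 62.8% in intermediate and at 119% in BEC. In these bulk samples, fewer cells with a transcript and less transcript per cell cannot be told apart. In the same libraries the summed hepatocyte markers stood at 4.14% to 5.20% of early in full and at 1.91% to 2.45% in BEC. Single hepatocyte markers ran from 1.03% (Hpd) to 17.9% (Serpina1c) in full, with a median of 4.99% over 10, and from 0.932% to 5.12% in BEC, so that Cps1, Otc, Ass1, Gls2, Asl, Nags and Slc25a15 lay within their range in full. In BEC, the means of Asl, Nags and Slc25a15 lay above it. The BEC libraries of Nags (4.87% to 6.18%) overlapped those of Serpina1c (4.03% to 5.94%), the highest marker there. These percentages depend on the TMM scaling: by library totals alone, full against early was -2.42 for Asl, -2.38 for Nags and -2.15 for Slc25a15 on the log2 scale, against -3.28, -3.24 and -3.01, and the first step of Nags was -0.77 against -1.44. The falls of these 3 members and of Cps1, Otc, Ass1, Gls2 and Oat from early to full were called under both scalings.

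**Figure D1:**
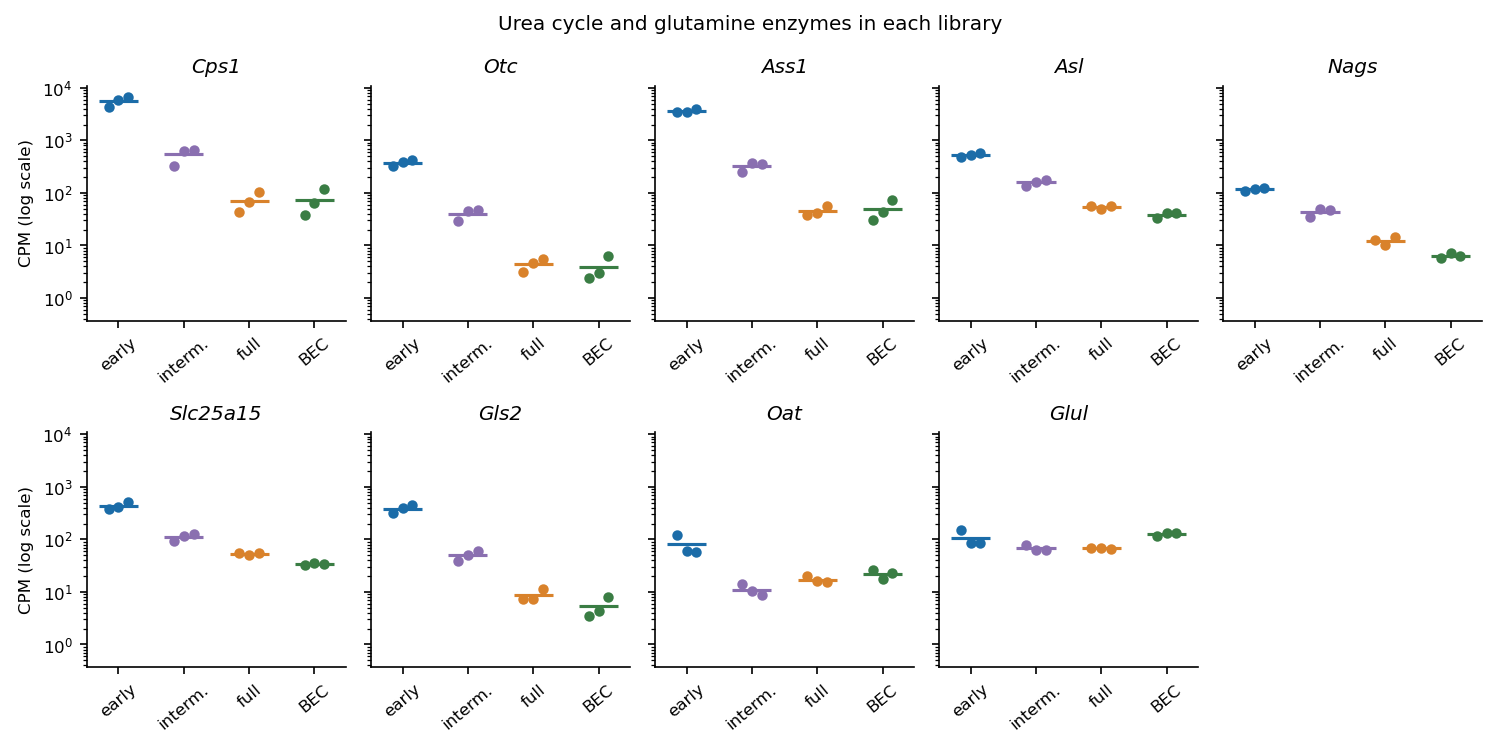
CPM of 9 members in each library on a log scale, with points for libraries 1 to 3 from left to right and a bar for the group mean. Cps1 has a mean of 5673 CPM in early, 71.7 in full and 72.8 in BEC, whereas Glul has 108 in early and 128 in BEC.

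**Figure D2:**
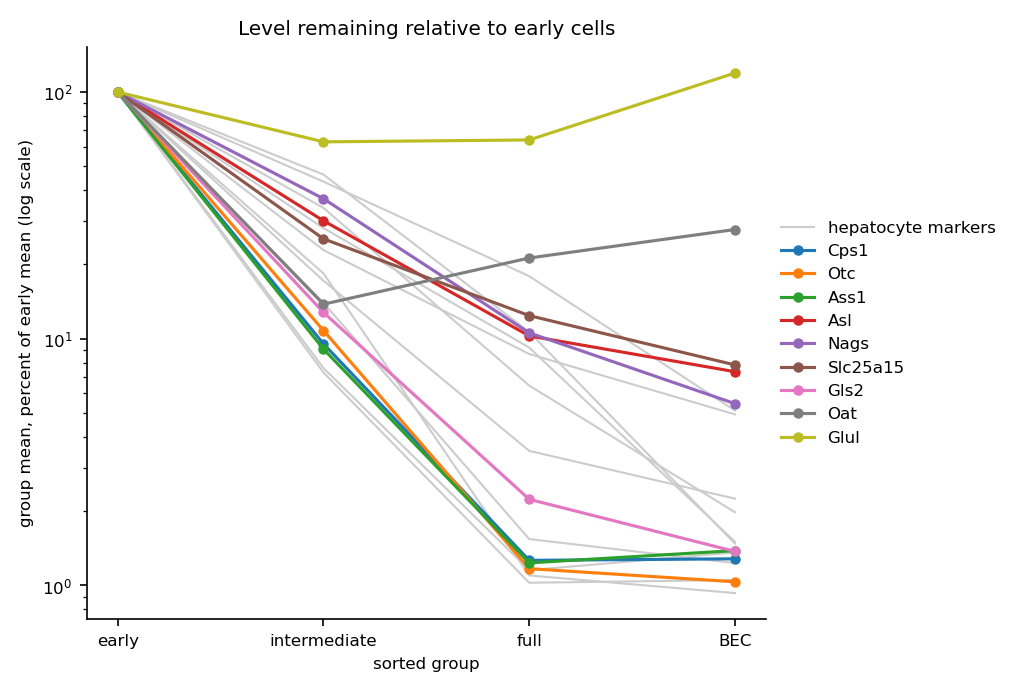
Group means as a percentage of the early mean on a log scale, for 9 members (coloured) and the 10 hepatocyte markers (grey). In BEC, Glul (119%), Oat (27.7%), Slc25a15 (7.83%), Asl (7.35%) and Nags (5.46%) lie above the highest hepatocyte marker at 5.12%.

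All 10 members differed among the 4 groups (F test over the groups in edgeR, adjusted p at most 0.000646), where 75.6% of all genes tested did. From early to intermediate, the gain of Cd24, 10 of 10 members fell, where 25.7% of all genes tested fell, 28.7% rose and 54.4% were called in all. The members' median log2 fold change was -2.91, against 0.06 over all genes tested. From intermediate to full, the gain of Epcam, 8 of 10 fell and 0 rose, where 19.8% of all genes fell, 20.8% rose and 40.7% were called, with medians of -2.16 and 0.01. Between full and BEC, 3 of 10 members were lower in BEC and 1 was higher, where 10.6% of all genes were lower, 10.7% higher and 21.3% called. The medians were -0.07 and 0.0046.

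Over the wider intervals, 10 of 10 members were lower in full than in early, where 32.1% of all genes were lower, 39.1% higher and 71.2% called. In BEC against early 9 of 10 were lower, all but Glul, where 33% of all genes were lower, 40% higher and 73.1% called. In BEC against intermediate 8 were lower and 2, Glul and Oat, were higher, where 26.2% of all genes were lower, 26.3% higher and 52.4% called. These comparisons share libraries with the steps and are not independent of them.

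**Figure D3:**
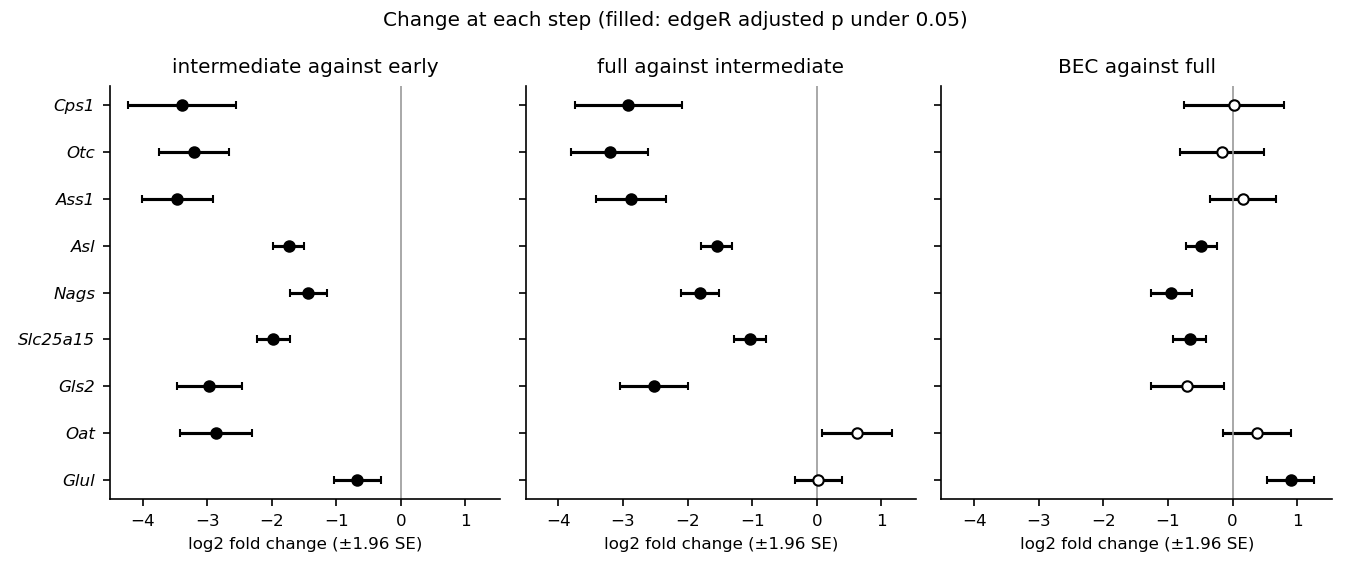
Log2 fold changes of 9 members at the 3 steps with bars for the 95% interval, filled where the edgeR adjusted p is under 0.05. Glul is the rightmost point at the first step (-0.67), and Oat and Glul are right of the others at the second (0.63 and 0.03).

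Cps1, the mitochondrial enzyme that fixes ammonia as carbamoyl phosphate and is the entry to the cycle, had 4285, 5939 and 6794 CPM in early and 321, 639 and 663 in intermediate. In full it had 43.7, 67.4 and 104 CPM and in BEC 37.3, 63.5 and 117. The first 3 groups did not overlap, and full and BEC did. The log2 fold change was -3.39 at the first step (SE 0.43, edgeR adjusted p 1.57e-05) and -2.92 at the second (SE 0.42, edgeR adjusted p 9.69e-05). BEC and full did not separate (0.02, interval from -0.76 to 0.80, edgeR adjusted p 0.982). Without BEC replicate 3, the highest of its group, this last value was -0.51 (edgeR adjusted p 0.434).

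Otc, which joins carbamoyl phosphate to ornithine, followed the same course. It had 324, 383 and 419 CPM in early, 29.1, 44.6 and 47.8 in intermediate, 3.11, 4.64 and 5.42 in full, and 2.36, 2.94 and 6.35 in BEC. The lowest BEC library still held 49 counts, above the 3 counts taken as the floor. The log2 fold changes were near equal, -3.21 at the first step (SE 0.28, edgeR adjusted p 4.19e-07) and -3.21 at the second (SE 0.30, edgeR adjusted p 2.16e-06). BEC and full again overlapped (-0.17, interval from -0.82 to 0.48, edgeR adjusted p 0.797).

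The cytosolic enzymes Ass1 and Asl differed in how far they fell. Ass1, which makes argininosuccinate from citrulline and aspartate, fell from 3600 ± 267 CPM in early to 327 ± 66.8 in intermediate and 44.5 ± 9.70 in full, and stood at 49.9 ± 22.4 in BEC (SD, n = 3). The log2 fold change was -3.46 at the first step (SE 0.28, edgeR adjusted p 2.57e-07) and -2.88 at the second (SE 0.28, edgeR adjusted p 2.60e-06). BEC and full were not called apart (0.17, edgeR adjusted p 0.743), and the value turned negative without BEC replicate 3 (-0.25). Replicate 1 was the lowest of its group for Cps1, Otc and Ass1 in each of the 4 groups.

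Asl, the next enzyme, which releases arginine, fell less. It had 479, 528 and 577 CPM in early, 136, 163 and 178 in intermediate, 49.8 to 57.5 in full and 33.7 to 41.6 in BEC, with no overlap between any of the groups. Its log2 fold changes were -1.73 at the first step (SE 0.12, edgeR adjusted p 7.31e-08) and -1.55 at the second (SE 0.12, edgeR adjusted p 5.45e-07). It was lower in BEC than in full (-0.48, SE 0.12, edgeR adjusted p 0.0113). Leaving out full replicate 3 (-0.44, edgeR adjusted p 0.0513) or BEC replicate 1 (-0.39, edgeR adjusted p 0.0510) ended this call. The log2 ratio of Asl to Ass1 counts within a library was -2.77 ± 0.07 in early (SD, n = 3), -1.03 ± 0.16 for intermediate, 0.31 ± 0.26 for full, and -0.27 ± 0.52 for BEC.

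Nags makes N-acetylglutamate, the activator that Cps1 requires, and Slc25a15 carries ornithine into the mitochondrion. Nags had 111, 119 and 123 CPM in early, 34.3, 49.6 and 46.5 in intermediate, 12.7, 10.2 and 14.4 in full, and 5.73, 7.27 and 6.26 in BEC. Slc25a15 had 377 to 513 CPM in early, 92.0 to 124 in intermediate, 49.9 to 55.9 in full and 32.9 to 35.2 in BEC. Neither gene overlapped between any of the groups. Both fell at each step, and in BEC against full Nags was at -0.95 (SE 0.16, edgeR adjusted p 0.000715) and Slc25a15 at -0.66 (SE 0.13, edgeR adjusted p 0.00201). These calls held without each library in turn. By the fitted fold, Nags was 1.93 times and Slc25a15 1.58 times as high in full as in BEC.

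Gls2 releases ammonia and glutamate from glutamine beside Cps1. It had 323, 389 and 451 CPM in early, 38.5, 50.7 and 59.6 in intermediate, 7.40, 7.22 and 11.4 in full, and 3.52, 4.29 and 8.18 in BEC. It fell at the first step (-2.97, SE 0.26, edgeR adjusted p 4.86e-07) and at the second (-2.52, SE 0.27, edgeR adjusted p 6.63e-06). In BEC against full it was -0.70 (SE 0.29, edgeR adjusted p 0.112), and 1 BEC library lay within the full range. A block for the replicate number called it lower (-0.72, edgeR adjusted p 0.00287), as did the fit that left out BEC replicate 3 (-1.15, edgeR adjusted p 0.00780), and so did the fit with no filter (edgeR adjusted p 0.000953).

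Glul, glutamine synthetase, had 153, 84.6 and 84.7 CPM in early and 77.7, 62.8 and 62.2 in intermediate. In full it had 69.6, 69.9 and 66.9 CPM and in BEC 118, 132 and 135. Early replicate 1 stood far above the other early libraries, and BEC lay above full and intermediate without overlap. Glul was higher in BEC than in full by 0.90 on the log2 scale (SE 0.19, edgeR adjusted p 0.00298) and than in intermediate by 0.93 (SE 0.19, edgeR adjusted p 0.000868). Both calls held under each alternative. Full and intermediate did not separate (0.03, interval from -0.34 to 0.39, edgeR adjusted p 0.928). Its fall at the first step depended on the scaling and on 1 library. With TMM factors it was -0.67 (SE 0.19, edgeR adjusted p 0.00779). It became -0.32 when early replicate 1 was left out (edgeR adjusted p 0.0213), and scaling by library totals alone gave -0.0029 (edgeR adjusted p 0.996). BEC against early was 0.26 (SE 0.19, edgeR adjusted p 0.230), became 0.60 when early replicate 1 was left out (edgeR adjusted p 0.000222), and came to 1.13 when scaled by library totals alone (edgeR adjusted p 6.52e-05). Full against early was -0.65 with TMM factors (edgeR adjusted p 0.00681), then -0.30 when early replicate 1 was left out (edgeR adjusted p 0.0226), and 0.22 by library totals alone (edgeR adjusted p 0.272).

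Oat links ornithine to glutamate and proline. It had 123, 60.4 and 57.6 CPM in early, 14.1, 10.2 and 8.89 in intermediate, 20.1, 15.8 and 15.3 in full, and 25.8, 17.8 and 23.3 in BEC. Intermediate was the lowest group and overlapped with no other. It fell at the first step (-2.86, SE 0.29, edgeR adjusted p 1.73e-06), also without early replicate 1 (-2.41). Full against intermediate was 0.63 (SE 0.28) and not called (edgeR adjusted p 0.0916). A block for the replicate number called it (0.64, edgeR adjusted p 0.00675). So did scaling by library totals (0.82, edgeR adjusted p 0.0266), no filter on low counts (edgeR adjusted p 0.00324), a fit of the 6 libraries alone (edgeR adjusted p 0.0233), DESeq2 (adjusted p 0.0477) and leaving out intermediate replicate 1 (0.83, edgeR adjusted p 0.0488). It was not called with median-of-ratios factors or a stricter filter, or when any of the other 5 libraries was left out. BEC stood above intermediate by 1.01 (SE 0.28, edgeR adjusted p 0.00768) and was not called against full (0.38, interval from -0.14 to 0.91, edgeR adjusted p 0.390).

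Set per length, as CPM per kilobase of the union of GENCODE M21 exons, the order of the members changed along the groups. In early, Ass1 (1491) led, above Cps1 (1021) without overlap, and Oat (34.1) and Glul (32.4) were lowest, with overlapping ranges among Nags, Oat and Glul. In intermediate Ass1 (135) and Cps1 (97.4) still led and Glul (20.3) was the fifth. In full Glul (20.7) stood beside Ass1 (18.4) and Cps1 (12.9), whose ranges overlapped in that order. In BEC Glul led with 38.7 CPM per kilobase, above Ass1 at 20.7 without overlap, and Otc was last at 0.915.

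Within a library, the log2 ratio of Glul to Cps1 counts was -5.75 ± 0.83 in early (SD, n = 3), -2.94 ± 0.77 for intermediate, 0.03 ± 0.65 for full, and 0.97 ± 0.74 for BEC. The count ratio of Glul to Gls2, the enzymes that make and break glutamine, was 0.188 to 0.474 in early, 1.04 to 2.02 in intermediate, 5.88 to 9.67 in full and 16.5 to 33.7 in BEC. These 4 ranges did not overlap. Such ratios do not depend on the scaling of the libraries, and they are given without a test because the genes were chosen with their values known.

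Of the 14 other enzymes of glutamine, glutamate and aspartate, 3 rose and 7 fell at the first step (6 and 5 when scaled by library totals alone), and 2 rose and 7 fell at the second. Of all genes tested, 28.7% rose and 25.7% fell at the first step, and 20.8% rose and 19.8% fell at the second. By library totals, 85.6% of all calls at the first step were higher. Ctps, which makes CTP from glutamine, rose at the first step (from 33.2 to 62.2 CPM). The transaminases Gpt, Got2 and Got1 fell most (log2 fold changes -2.24, -1.71 and -1.71), and Glud1, glutamate dehydrogenase, fell from 2198 to 1028 and then 423 CPM. Gfpt1, which uses glutamine for hexosamines, rose at the second step (0.39). It was higher in BEC than in full (0.82, 160 against 90.9 CPM). Ppat, the glutamine-using entry to purine synthesis, was higher in BEC than in full (0.62), and Got1, Gpt2 and Got2 were lower.

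Of 17 tested genes of arginine, ornithine, polyamines, creatine and proline, 3 rose and 9 fell at the first step (5 and 5 by library totals), and 2 rose and 9 fell at the second. The shares of all genes tested that rose and fell were 28.7% and 25.7% at the first step and 20.8% and 19.8% at the second. Prodh2, Prodh and Aldh4a1, enzymes of proline breakdown, fell most at the first step (-3.51, -2.16 and -1.95) and fell again at the second (-3.15, -1.15 and -1.25). Aldh18a1 of proline synthesis rose at the first step (1.13), and Gamt fell at both (-1.43 and -1.41). Nos2, the inducible nitric oxide synthase, which uses arginine, was at or under 0.251 CPM in each early and intermediate library. It reached 9.32, 9.10 and 7.43 CPM in full and 42.9, 62.7 and 59.4 in BEC (BEC against full 2.67, SE 0.17, edgeR adjusted p 1.78e-07). Agmat, Gamt and Sat1 were lower in BEC than in full (-2.74, -1.26 and -0.74).

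**Figure D4:**
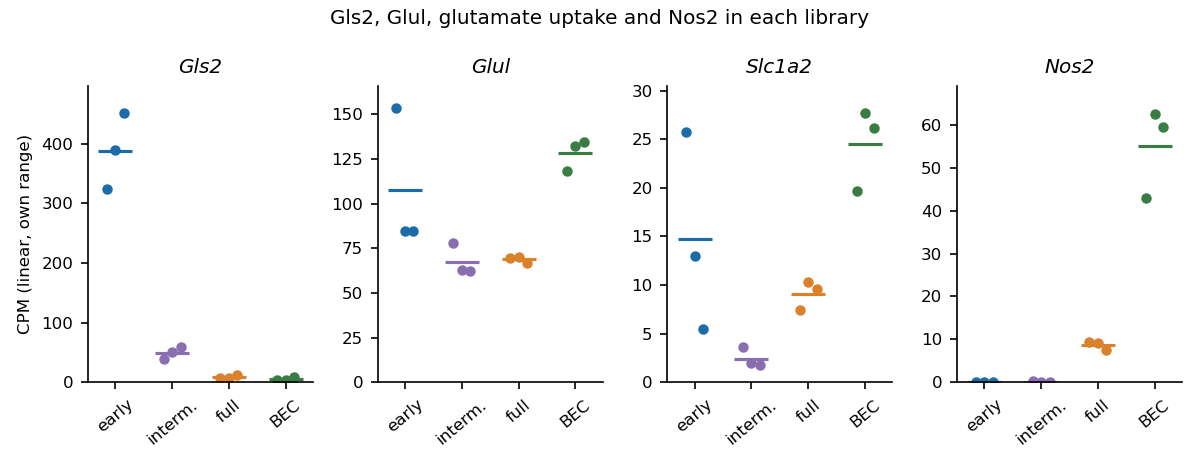
CPM on linear axes from 0 for Gls2, Glul, Slc1a2 and Nos2 in each library, with bars for group means. Gls2 falls, Glul and Slc1a2 have their lowest mean in intermediate, and Nos2 is near 0 in early and intermediate and reaches a mean of 55.0 CPM in BEC.

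Of 18 tested carriers of ammonium, glutamine, glutamate, aspartate, arginine and urea, 3 rose and 11 fell at the first step (7 and 10 by library totals), 3 rose and 8 fell at the second, and 2 were higher and 6 lower in BEC than in full. Over all genes tested, the shares were 28.7% and 25.7%, then 20.8% and 19.8%, and 10.7% and 10.6% in BEC against full. Slc1a2, the glutamate carrier found with Glul in pericentral hepatocytes, had 25.7, 13.0 and 5.50 CPM in early, 3.58, 1.97 and 1.75 in intermediate, 7.45, 10.3 and 9.58 in full, and 19.7, 27.7 and 26.2 in BEC. It fell at the first step (-2.61, and -1.92 without early replicate 1), then rose by 1.91 (SE 0.45, edgeR adjusted p 0.00370), and was higher in BEC than in full by 1.43 (SE 0.39, edgeR adjusted p 0.0161). Rhbg, the ammonium carrier of the same hepatocytes, had 5.22, 1.91 and 2.35 CPM in early, a mean of 3.16. It fell to 0.416 CPM in intermediate (-2.93, and -2.36 without early replicate 1). Its mean of 0.108 CPM in BEC lay under the level of 3 counts. Slc38a3, the glutamine carrier of hepatocytes, fell from 1756 to 334 and then 84.8 CPM in full, and was at 33.8 in BEC. Slc7a11, the cystine and glutamate exchanger, had 165, 48.2 and 33.1 CPM in early and fell at both steps (-2.55 and -2.48). The first of these was -1.53 without early replicate 1 (edgeR adjusted p 0.00394). Aqp9, a channel for glycerol and urea, fell at both steps (-2.21 and -2.07) and was lower again in BEC (-2.20). Slc7a5 rose at both steps (1.17 and 1.23), and so did Slc38a1, which was at or under 3 counts in each early library, at 1.73 CPM in intermediate and at 17.8 in full. Slc7a7 rose at the first step (1.26) and was higher in BEC than in full (0.45), where Slc38a7 was lower (-0.85).

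Among 10 genes of mitochondrial bicarbonate supply, deacylation and control, 0 rose and 8 fell at the first step (1 and 5 by library totals), 6 fell at the second, and 2 were lower in BEC than in full. Among all genes tested, 28.7% rose and 25.7% fell at the first step, 19.8% fell at the second, and 10.6% were lower in BEC. Car5a, the mitochondrial carbonic anhydrase that supplies Cps1 with bicarbonate, fell from 33.1 ± 12.1 to 2.30 ± 1.18 CPM (SD, n = 3). Gcgr, the glucagon receptor, fell at both steps (-1.71 and -3.03) and was lower again in BEC (-2.06). The transcription factors Cebpb, Cebpa and Hnf4a fell at the first step (-1.65, -1.52 and -0.84) and again at the second (-0.77, -1.42 and -1.77). By library totals, Hnf4a was not called at the first step and Cebpb not at the second. Hnf4a was also lower in BEC than in full (-0.52).

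Zonated genes outside the members fell on both sides of the lobule. Of 12 periportal genes 1 rose and 9 fell at the first step (2 and 8 by library totals), and of 16 pericentral genes 0 rose and 14 fell (2 and 13). For all genes tested, 28.7% rose and 25.7% fell at this step, and 19.8% fell at the second. Cyp2f2, Hal and Hsd17b6 led the periportal falls (-3.36, -3.34 and -3.53), and Cyp2e1, Cyp7a1 and Rgn the pericentral ones (-3.88, -3.90 and -3.92). Cdh1, epithelial cadherin, rose at the first and second steps (0.92 and 0.81) and was higher in BEC than in full (0.44). At the second step 9 periportal genes fell, led by Pck1, Sds and Hal (-3.84, -3.38 and -3.31), and 10 pericentral genes, led by Cyp2e1, Cyp7a1 and Cyp1a2 (-2.72, -2.63 and -2.56). In BEC against full, Hsd17b13, Aldh1b1 and Hpx were lower (-2.31, -1.19 and -1.15), as were Cyp27a1, Rnf43 and Gulo (-2.47, -1.03 and -0.85). Of the pericentral list, Slc1a2 was the 1 gene that rose at the second step and the 1 gene higher in BEC than in full.

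The early libraries are described here by which of them held the highest and lowest levels, with no test. Over all 12636 genes with an early mean of at least 1 CPM, early replicate 1 held the lowest level of 37.3% and the highest of 38.5%. Chi-square per degree of freedom was 58.6 between early replicates 1 and 2, the highest of any pair of replicates, 46.4 between 1 and 3 and 47.2 between 2 and 3. It held the lowest level of 8 of the 10 members and the highest of Glul and Oat. It held the highest level of 11 of the 16 pericentral genes outside the members, with Lgr5 at 10.4 CPM against 2.91 and 2.59 and Cyp2e1 at 1297 against 1030 and 950. Of 11 periportal genes outside the members with a mean of at least 1 CPM, it held the highest of 5 and the lowest of 5. The medians of its level over the mean of the other early libraries were 1.35 for the pericentral and 0.855 for the periportal list. Of the pericentral genes, Cyp7a1 (0.652), Rnf43 (0.896), Rgn (0.956) and Cyp1a2 (0.986) were below 1.

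**Figure D5:**
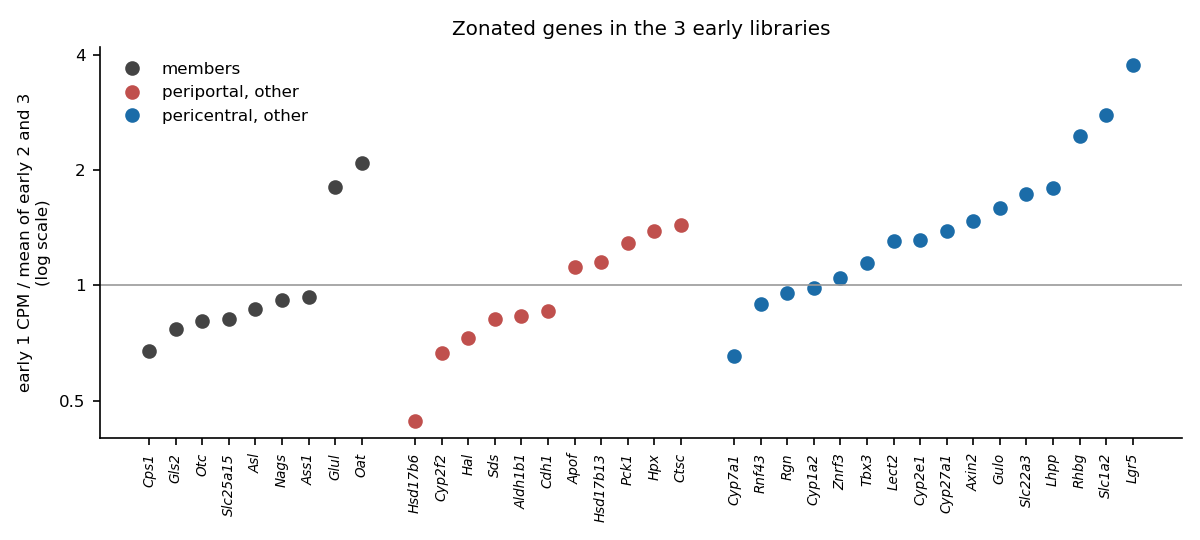
Level in early replicate 1 divided by the mean of early replicates 2 and 3, on a log scale, for 9 members and the zonated genes outside them. Glul and Oat lie at 1.81 and 2.09, among pericentral genes such as Lhpp at 1.80 and Slc1a2 at 2.78, and the other members shown lie between 0.673 and 0.932.

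By Pearson correlation of log2 CPM over the 12 libraries, which share 4 groups, the genes most like Cps1 included Cyp2f2 (0.999), Serpina3k (0.998) and Abcb11 (0.997). Those most like Glul included Slc35f5 (0.970), Dnmbp (0.965), Tvp23b (0.937) and Erbb3 (0.919). For Oat they were Cs (0.969), Gpcpd1 (0.957), Eaf1 (0.954), Rnf11 (0.953) and Lbp (0.953). The search covered 9963 other genes with a mean of at least 10 CPM. Cps1 itself correlated with Otc, Ass1 and Gls2 at 0.996, 0.996 and 0.991, with Nags at 0.958, with Oat at 0.608 and with Glul at 0.0190.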

How the data were processed

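The authors deposited raw counts per gene symbol for 12 libraries. Per the submitters' processing notes, STAR 2.7.10b, featureCounts 2.0.1, DESeq2 and build GRCm39 were used. The annotation, strandedness and treatment of reads matching several genes are not given in the sources used here, so counts of genes with close copies or overlapping neighbours are uncertain. A second, normalized table was not used here. Groups and replicate numbers come from the sample titles. Nothing states that replicates came from separate animals, so p-values measure the spread between these libraries, which may be technical. Genes of the GRCm38 reference were used for lengths and promoters only, and no coordinates were converted.

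Genes were filtered with filterByExpr and scaled by TMM. The 12 libraries were fitted together, each group with its own mean, and tested by edgeR's quasi-likelihood test (R 4.3.3, edgeR 4.0.16, limma 3.58.1) with Benjamini-Hochberg adjustment over 16210 genes and calls at 0.05. The genes kept held 99.9% of each library's counts. SEs are the absolute log2 fold change over the square root of F. Intervals span 1.96 SE on each side, the normal value for 95%, and so are narrower than 95% intervals of this test. Log2 CPM used a prior count of 2, and 3 counts were taken as the floor, 0.128 to 0.273 CPM, which covers counting error only. The common biological coefficient of variation was 14.8%. Replicates of a group differed beyond sampling noise, with chi-square per degree of freedom of 5.36 to 58.6. The procedure was tested on simulated data.

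A member and some genes of the lists and searches are counted but not reported here. Members and lists were chosen with earlier results of these data known. Of each list, the 3 called genes with the largest change in each direction and at least 10 CPM in the higher group are named. They were ranked per step and in BEC against full. Rhbg, Lgr5, Lhpp, Csf1r, Cd68, Adgre1 and Rgs5, and the values of list genes outside their ranked comparisons, were chosen after their values were seen. Alternatives were median-of-ratios factors, total counts, DESeq2 1.42.0, other filters, a replicate block, 6 libraries, and leaving out each library. Deviations from the group means of same-numbered libraries correlated across genes with r from 0.121 to 0.293 in intermediate and early. They had r from 0.137 to 0.322 in full and intermediate and 0.170 to 0.257 in BEC and full. By a rule of r over 0.1 in each pair, the numbers were taken to pair these libraries. Libraries of unlike number were not compared, so the rule does not establish pairing. The main fit has no replicate block. In the other comparisons at least 1 pair was under 0.1.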

Additional observations from a re-analysis of the deposited data

How the results depend on the processing

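Over 54 log2 fold changes of members, 677 of 702 alternative values kept their direction and side of the threshold, 11 gained a call, 3 lost one and 11 changed sign, none of these past the threshold. Members called numbered 9 to 10 at the first step, 8 to 9 at the second and 3 to 5 between BEC and full. With total counts only, Glul in full against early was 0.22, the median of all genes moved from 0.06 to 0.72 at the first step, from 0.01 to 0.21 at the second and from 0.14 to 1.005 in full and 1.004 in BEC against early, and from 0.00063 to 0.20 in BEC against intermediate, and the share of calls that were higher moved from 52.8% to 85.6%, from 51.2% to 72.6%, from 54.9% to 81.8%, from 54.8% to 80.3% and from 50.1% to 66.5%. BEC against full stayed near even. Between BEC and full, Cps1 was -0.0080 without a filter and -0.027 with the replicate block. Leaving out 1 library each, it ran from -0.51 to 0.39, Otc from -0.73 to 0.0841, Ass1 from -0.25 to 0.41, and Glul in full against intermediate from -0.0386 to 0.14. The cause was not tested. The replicate block gave 9274 and 7300 genes at the first and second steps and 4096 in BEC against full. The main fit gave 8817, 6590 and 3445. Among the members the block gained the calls of Oat at the second step and Gls2 in BEC against full and changed no other. For the other lists, alternatives were chosen after seeing the data. Total counts of calls stayed within 1.5 times, but scaling by library totals moved the counts in each direction further, as given beside the lists for the first step. At the second it gave 4 higher and 7 lower in the arginine and ornithine list (main 2 and 9) and 2 and 8 in the pericentral list (main 1 and 10). Scaled by library totals, the falls of Hnf4a (-0.17) and Azin1 (-0.25) at the first step were not called. Slc38a7 went from called lower at that step (-0.37, edgeR adjusted p 0.0127) to called higher (0.29, edgeR adjusted p 0.0318). The lowest count of Otc in a BEC library was 49, and counting error is largest for such values. No depth limit was tested.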
